A study of Mus musculus with 20 samples.

Results

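Teneurins, latrophilins and Flrt proteins are 3 families of surface proteins that bind one another across the gap between neurons. The 10 genes of these families (Tenm1, Tenm2, Tenm3 and Tenm4, Adgrl1, Adgrl2 and Adgrl3, Flrt1, Flrt2 and Flrt3) were taken by symbol from a bulk table of 37607 gene rows, matched by Ensembl identifier. All 10 were found there and all 10 passed the filter on low counts. All 10 also had a row in the single-cell table.

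The study profiled pyramidal cells of the mouse subiculum, the main output station of the hippocampal formation, as 12 bulk libraries and as single cells. The bulk libraries were 3 biological replicates for each of 4 populations, which the labels name by projection target as NA, PFC, RSC and VHN. The abbreviations are not spelled out in the labels. In work on this region NA usually means nucleus accumbens, PFC prefrontal cortex and RSC retrosplenial cortex. VHN is used as written. All groups were fluorescent neurons picked by hand from dissected slices, and the labels state no strain, age, genotype or treatment. How many animals or cells went into a library is not stated either.

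Teneurins are large transmembrane proteins that pair with themselves and with latrophilins on the opposite cell. Latrophilins are adhesion G protein-coupled receptors that bind teneurins and Flrt proteins through different domains of their outer part. Flrt proteins carry leucine-rich repeats and bind latrophilins as well as the Unc5 receptors, which act in axon repulsion. In the hippocampal network, Tenm3 and Adgrl2 are known for complementary patterns that help CA1 axons find their target zone in the subiculum.

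The members that differed most between the populations came from all 3 families, and the sequence just before the start of 1 gene of each is shown so that these starts can be compared. Promoter entries from RefSeq on GRCm38.p6 matched 9 of the 10 members by symbol. Each line holds the 250 bases before the annotated start, 5′ to 3′ on the gene's own strand. Capitals mark matches, on either strand, to 4 motifs that were searched: the TATA box TATAAA, the GC box GGGCGG, the cAMP response element TGACGTCA and the E-box CAGATG.
Tenm3, ENSMUSG00000031561, minus strand, chr8:48674691-48674940: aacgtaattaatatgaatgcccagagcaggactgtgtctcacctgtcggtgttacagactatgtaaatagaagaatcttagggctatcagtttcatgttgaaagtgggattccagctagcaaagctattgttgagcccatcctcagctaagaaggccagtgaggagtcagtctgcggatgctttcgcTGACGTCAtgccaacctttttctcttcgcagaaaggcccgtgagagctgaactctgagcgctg
Adgrl1, ENSMUSG00000013033, plus strand, chr8:83899848-83900097: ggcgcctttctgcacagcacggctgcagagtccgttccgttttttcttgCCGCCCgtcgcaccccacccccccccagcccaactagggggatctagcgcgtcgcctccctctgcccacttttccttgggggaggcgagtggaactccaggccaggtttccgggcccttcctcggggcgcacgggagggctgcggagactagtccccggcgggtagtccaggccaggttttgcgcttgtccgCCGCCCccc
Flrt3, ENSMUSG00000051379, minus strand, chr2:140671477-140671726: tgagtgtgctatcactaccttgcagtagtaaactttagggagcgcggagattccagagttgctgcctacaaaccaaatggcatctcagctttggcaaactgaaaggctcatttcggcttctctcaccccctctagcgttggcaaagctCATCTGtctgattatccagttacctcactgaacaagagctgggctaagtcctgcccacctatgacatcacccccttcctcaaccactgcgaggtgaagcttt

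The Tenm3 window held 1 match to the cAMP response element, from 63 to 56 bases before the annotated start. The bases after that match read like the end of an intron, so this start may belong to an internal exon. Whether the window is a promoter was not tested. That motif, a palindrome, occurred in 1.55% of 32851 RefSeq promoter windows of the same length. The Adgrl1 window held 2 matches to the GC box on the opposite strand, at 201 to 196 and at 9 to 4 bases before the start, and 32.7% of all windows held that motif. The Flrt3 window held 1 E-box match on the opposite strand, at 102 to 97 bases before the start, against 14.4% of all windows. No TATA box match, present in 12.4% of windows, lay in these 3 windows. Base composition also differed, with 68.8% G and C in the Adgrl1 window, 50% in that of Flrt3 and 47.6% in that of Tenm3, beside a median of 52.4% over all windows. These matches are descriptions of letters and not of binding.

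Bulk libraries held between 10777273 and 20904126 gene fragments. The vesicular glutamate transporter Slc17a7, which defines cortical and hippocampal excitatory cells, was present in every library. The sum of 6 excitatory markers was 2970 to 4370 CPM across NA and PFC libraries and 2110 to 2410 across those of RSC and VHN. Camk2a was the largest part of it, at 1420 to 2390 CPM and 1020 to 1140 CPM. Of the 6, only Slc17a6 ran the other way, at 37.9 to 174 CPM in NA and PFC and 290 to 537 in RSC and VHN. Summed over 8 interneuron markers, the level was 58.7 CPM in RSC replicate 2, 238 in RSC replicate 3 and 179 in VHN replicate 3, and at most 11.9 in the other 9 libraries. Summed over 4 endothelial and mural markers it was 24 to 91.8 CPM across NA and PFC libraries and 2.02 to 21.5 across those of RSC and VHN. Nearly all of that was Rgs5, while Cldn5, which defines endothelial cells, was at 0 in all 12 libraries. The part of these signals in the results was not tested, but the bulk tests and counts of calls below were computed again without the 3 libraries that carried interneuron transcripts. CPM here is each gene's count relative to the library total, scaled by TMM. In such bulk samples, fewer cells that express a gene and less RNA per cell cannot be told apart.

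Across the 4 populations, 6 of the 10 members passed the edgeR quasi-likelihood test at an adjusted p of 0.05, in a fit where 8.93% of 13916 genes did. These were Tenm1, Tenm2, Tenm3, Adgrl1, Flrt2 and Flrt3. When NA and PFC were set against RSC and VHN, 7 of 10 passed, against 14.2% of all genes. Of the members, 5 were higher in NA and PFC (7.58% of all genes) and 2 were lower (6.66% of all genes). This way of pairing the populations was chosen with earlier results of these data known. Below, the paired contrast or paired difference means this comparison of populations, and libraries were not matched in it. The median log2 difference was 0.41 over the members and 0.01 over all genes, and the median absolute difference was 0.82 and 0.59. The libraries of the 2 sides did not overlap for 5 of 10 members, against 7.52% of all genes. All NA and PFC libraries were above the others for Tenm1, Adgrl1 and Flrt3 (3.57% of all genes) and below them for Tenm2 and Tenm3 (3.95%). Without the 3 libraries that carried interneuron transcripts, fewer members passed either test, and so did a smaller share of all genes. RSC was then represented by 1 library. In that fit the paired log2 difference was 1.499 for Tenm1, -0.686 for Tenm2, -1.779 for Tenm3 and 0.58 for Tenm4. It was 0.925 for Adgrl1, 1.195 for Flrt2 and 1.199 for Flrt3.

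**Figure D1:**
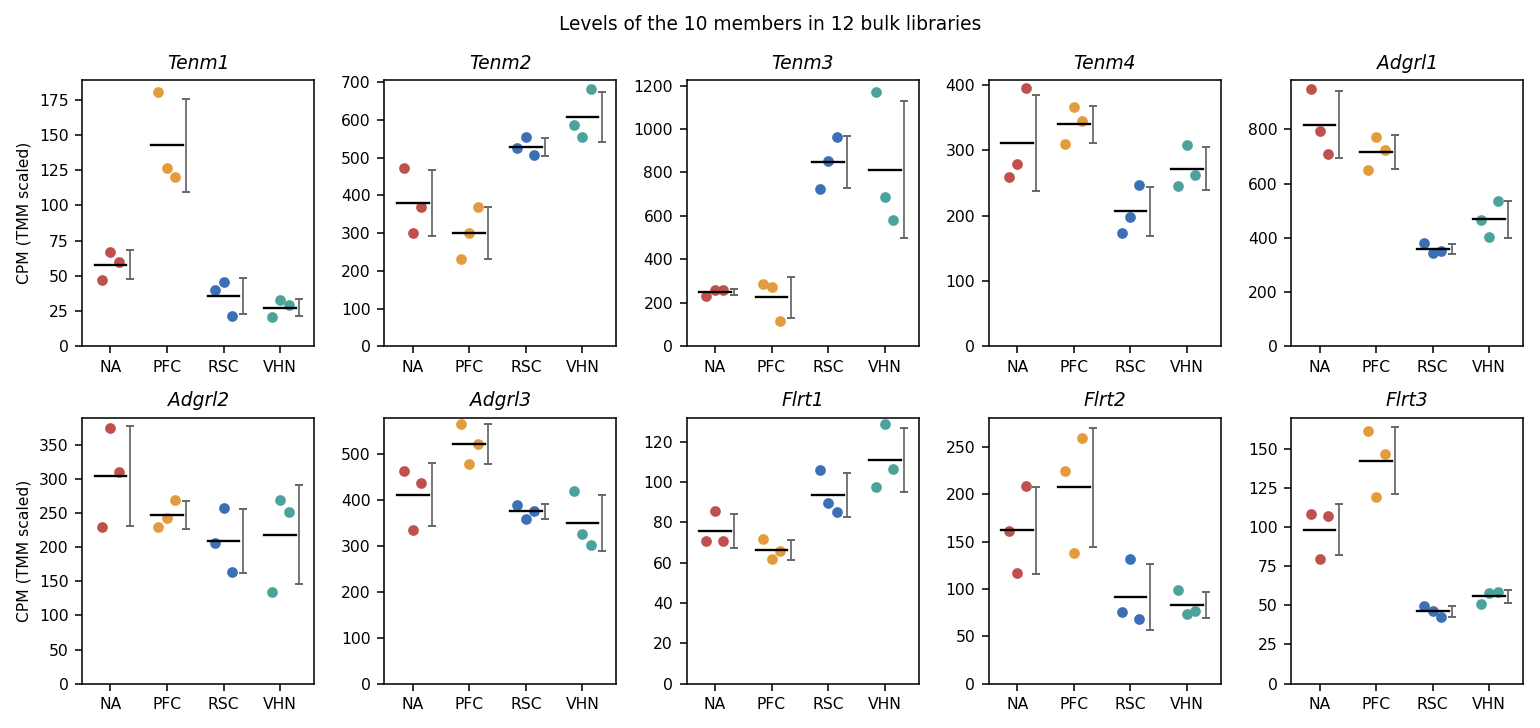
Each panel plots one member, with the 12 bulk libraries as points (TMM-scaled CPM, linear axis from 0), a black line for the population mean and a grey bar for its SD (n = 3). Tenm3 runs from 117 to 285 CPM over the NA and PFC points and from 580.2 to 1172 CPM over the RSC and VHN points, while Adgrl1 and Flrt3 lie on the opposite sides.

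Tenm3 had the largest difference of the family and was higher in RSC and VHN. It stood at 233, 260.0 and 258 CPM in NA, at 285, 271 and 117 in PFC, at 726, 855 and 962.5 in RSC, and at 1172, 687 and 580.2 in VHN. All 6 RSC and VHN libraries were above all 6 NA and PFC libraries. The ratio of mean CPM was 3.49, and the log2 difference of NA and PFC from RSC and VHN was -1.81 ± 0.21 (SE, edgeR, adjusted p = 2.42e-05). NA differed from RSC by -1.76 (adjusted p = 0.00189) and from VHN by -1.70 (adjusted p = 0.00497) in the same edgeR fit. PFC differed from RSC by -1.92 (adjusted p = 0.000595) and from VHN by -1.86 (adjusted p = 0.00131). The paired contrast stayed past the threshold without the 3 libraries named above (-1.78, adjusted p = 0.000289), whereas NA against RSC did not (adjusted p = 0.0855).

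Tenm1, an X-linked teneurin, ran the other way and was highest in PFC. Its levels were 46.9, 67.2 and 59.9 CPM in NA, 181, 127 and 120.4 in PFC, 39.6, 45.5 and 21.3 in RSC, and 20.4, 32.6 and 29.1 in VHN. All 3 PFC libraries stood above all others, and the lowest NA library lay only just above the highest RSC library. Mean levels were 143 ± 33.2 CPM in PFC and 58.0 ± 10.3 in NA, 35.5 ± 12.6 in RSC and 27.4 ± 6.25 in VHN (SD, n = 3). The paired contrast gave 1.55 ± 0.25 on the log2 scale (SE, edgeR, adjusted p = 0.000553). PFC exceeded RSC by 2.01 (adjusted p = 0.00196) and VHN by 2.38 (adjusted p = 0.00105). The difference between NA and PFC was -1.30 ± 0.35 and did not pass with edgeR (adjusted p = 0.124). Without the 3 libraries named above the paired contrast stayed past the threshold (adjusted p = 0.0226), and PFC against RSC did not (adjusted p = 0.157).

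Tenm2, a teneurin that pairs with latrophilins at excitatory synapses, was also higher in RSC and VHN, by a smaller margin. It was measured at 472, 299.7 and 369 CPM in NA, at 231.5, 300.0 and 369 in PFC, at 525, 555 and 507 in RSC, and at 587, 555 and 683 in VHN. The sides did not overlap, but NA replicate 1 lay close to RSC replicate 3. The ratio of means was 1.67 and the log2 difference was -0.75 ± 0.14 (SE, edgeR, adjusted p = 0.0017). This call was lost without the 3 libraries named above (-0.69, adjusted p = 0.0617) and on deposited FPKM values with limma (-0.41, adjusted p = 0.14). In pairwise edgeR contrasts it passed for PFC against RSC (-0.82, adjusted p = 0.0144) and PFC against VHN (-1.02, adjusted p = 0.00643), and not for NA against either. Without PFC replicate 1 (adjusted p = 0.0711) or RSC replicate 2 (0.0604), PFC against RSC missed the threshold. Both PFC contrasts of Tenm2 were lost with limma on FPKM (adjusted p = 0.418 against RSC and 0.114 against VHN) and without the 3 libraries named above (0.273 and 0.0713), as was its 4-group call (0.257 and 0.153).

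Tenm4, known for its part in myelination and axon growth, showed the smallest difference that passed. Levels were 259, 279.5 and 396 CPM in NA, 309, 366 and 344.5 in PFC, 173, 198.5 and 247 in RSC, and 246, 308.5 and 261 in VHN. VHN replicates 2 and 3 reached into the range of NA, and RSC had the lowest mean, 206 ± 37.6 CPM (SD, n = 3). The paired contrast was 0.46 ± 0.15 (SE, edgeR, adjusted p = 0.0448). It missed the threshold in 9 of 12 fits that left out 1 library, all but those without NA replicate 1, NA replicate 2 or RSC replicate 3 (adjusted p 0.0314 to 0.114 over the 12), and without the 3 libraries named above (adjusted p = 0.166), with no scaling (0.109), with no filter on low counts (0.053) and with limma on FPKM (0.27). The 4-group test did not pass with edgeR (adjusted p = 0.113) and passed with DESeq2 (0.0454), as did the paired contrast (0.0195). Of the pairs only PFC against RSC passed with edgeR (0.72, adjusted p = 0.0364), and it held in 6 of 12 fits that left out 1 library. That call was lost with limma on FPKM (0.315) and without the 3 libraries, where the log2 difference was 0.974.

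Among the latrophilins, Adgrl1 was the one that differed. Its levels were 950.3, 794 and 707 CPM in NA, 651, 773 and 724 in PFC, 381, 342 and 352.5 in RSC, and 466, 401 and 536 in VHN. Every NA and PFC library exceeded every RSC and VHN library. The ratio of means was 1.86 and the log2 difference 0.90 ± 0.11 (SE, edgeR, adjusted p = 6.44e-05), with the smallest SE of the 10 members. It passed against both RSC and VHN from NA (1.19, adjusted p = 0.000493, and 0.80, adjusted p = 0.0124) and from PFC (1.0, adjusted p = 0.000936, and 0.61, adjusted p = 0.0371). The paired contrast held without the 3 libraries named above (0.93, adjusted p = 0.00482). In that fit NA against VHN also passed (adjusted p = 0.0444), while NA against RSC (0.0879), PFC against RSC (0.146) and PFC against VHN (0.109) did not. In the fits that left out 1 library, NA against VHN missed the threshold without NA replicate 1 (adjusted p = 0.0605), VHN replicate 1 (0.0577) or VHN replicate 2 (0.09), and PFC against VHN missed it in 8 of 12, all but those without an NA library or VHN replicate 3 (adjusted p up to 0.187). Both VHN contrasts were also lost with limma on FPKM (adjusted p = 0.234 from NA and 0.439 from PFC), NA against VHN with no scaling beyond the library total (0.0507), and PFC against VHN with no filter on low counts (0.0502).

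Adgrl2, the latrophilin with the complementary hippocampal pattern to Tenm3, did not pass in any of these tests. It was at 229, 375 and 309.9 CPM in NA, at 229.9, 243 and 270.0 in PFC, at 206, 257 and 164 in RSC, and at 135, 269 and 252 in VHN. All 4 populations overlapped, and the paired contrast was 0.36 ± 0.18 (SE, edgeR, adjusted p = 0.219). Adgrl3, a postsynaptic receptor known to need both ligands in hippocampal synapse formation, stood at 463.5, 334 and 438 CPM in NA, 565, 479 and 523 in PFC, 390.2, 359 and 376 in RSC, and 419, 326.5 and 302.5 in VHN. Its 3 PFC libraries were the highest, while NA overlapped RSC and VHN. The paired contrast of Adgrl3 was 0.36 ± 0.13 (SE, edgeR, adjusted p = 0.0677), and it passed with DESeq2 (adjusted p = 0.0378), with limma on FPKM (0.69, adjusted p = 0.0163), and with edgeR without NA replicate 2 (0.0208) or without VHN replicate 1 (0.0442).

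Flrt3 and Flrt2 were higher in NA and PFC. Flrt3 was at 108, 79.7 and 107 CPM in NA, 162, 119 and 147 in PFC, 49.55, 46.4 and 42.4 in RSC, and 51.1, 57.9 and 58.5 in VHN. No library of one side reached the range of the other, and PFC was above NA in each of its 3 libraries. The ratio of means was 2.36 and the log2 difference 1.22 ± 0.19 (SE, edgeR, adjusted p = 0.000326). The contrast of NA with PFC did not pass for it (-0.53 ± 0.26, edgeR, adjusted p = 0.389). From PFC, Flrt3 passed against RSC (1.63, edgeR, adjusted p = 0.000961) and VHN (1.35, adjusted p = 0.00651). From NA it passed against RSC (1.09, edgeR, adjusted p = 0.0202), though not without NA replicate 1, NA replicate 3 or any 1 of the RSC libraries (adjusted p 0.0546 to 0.0938) or with limma on FPKM (0.0689), and the value against VHN was 0.82 (adjusted p = 0.112).

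Flrt2 was measured at 161, 117 and 208.5 CPM in NA, 225, 138 and 259.6 in PFC, 75.6, 132 and 68.1 in RSC, and 99.1, 73.5 and 76.7 in VHN. RSC replicate 2 reached into the range of NA, so the sides overlapped. The ratio of means was 2.11 and the log2 difference 1.07 ± 0.22 (SE, edgeR, adjusted p = 0.00366). Flrt2 passed against RSC (1.17, edgeR, adjusted p = 0.0258) and VHN (1.32, adjusted p = 0.0223) from PFC, and the 4-group call (adjusted p = 0.0218) was lost without any 1 of PFC replicate 1, PFC replicate 3, RSC replicate 1, VHN replicate 2 or VHN replicate 3 (adjusted p 0.0503 to 0.0693). The PFC contrasts of Flrt2 were each lost in 4 of 12 fits that left out 1 library: against RSC without PFC replicate 1, PFC replicate 3, RSC replicate 1 or RSC replicate 3 (adjusted p 0.0748 to 0.12), and against VHN without PFC replicate 1, PFC replicate 3, VHN replicate 2 or VHN replicate 3 (0.0657 to 0.107). The paired contrasts of both genes held without the 3 libraries named above, at 1.2 for Flrt3 (adjusted p = 0.0299) and 1.2 for Flrt2 (adjusted p = 0.0302). Their other calls did not hold in that fit: for Flrt3 the 4-group test gave an adjusted p of 0.0861, NA against RSC 0.479, PFC against RSC 0.164 and PFC against VHN 0.0679, and for Flrt2 the 4-group test gave 0.112, PFC against RSC 0.185 and PFC against VHN 0.0966.

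Flrt1 leaned the other way from its relatives. It stood at 70.9, 85.5 and 70.9 CPM in NA, 71.6, 61.7 and 65.9 in PFC, 106, 89.6 and 85.0 in RSC, and 97.4, 129 and 107 in VHN. Only NA replicate 2 and RSC replicate 3 crossed between the sides, by less than 1 CPM. The log2 difference was -0.52 ± 0.18 and missed the threshold (SE, edgeR, adjusted p = 0.0639). It passed with DESeq2 (adjusted p = 0.0255), and with edgeR without NA replicate 2 (0.0384) or with no scaling beyond the library total (0.0335).

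**Figure D2:**
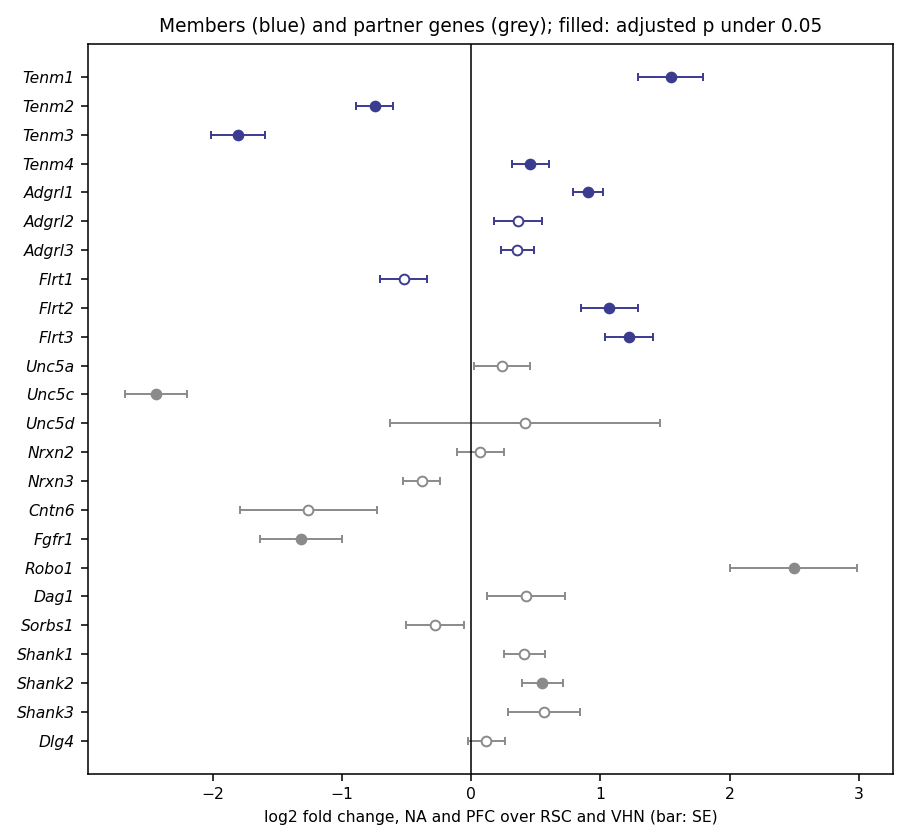
The horizontal axis is the log2 fold change of NA and PFC over RSC and VHN with its SE, from the edgeR fit, for the 10 members (blue) and 14 partner genes (grey). Filled points passed an adjusted p of 0.05: 7 members, from -1.81 for Tenm3 to 1.55 for Tenm1, and 4 partner genes, from -2.44 for Unc5c to 2.49 for Robo1.

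Counted by pair of populations, the members that passed numbered 3 for NA against RSC (5.83% of all genes), 2 for NA against VHN (2.75%), 7 for PFC against RSC (9.76%) and 6 for PFC against VHN (5.09%). The count for PFC against RSC was 4 without PFC replicate 1 (7.03% of all genes). For NA against VHN it was 1 without NA replicate 1 (1.75%), VHN replicate 1 (0.927%) or VHN replicate 2 (1.06%). No member passed for NA against PFC with edgeR (0.438% of all genes), 1 had an unadjusted p under 0.05, and DESeq2 called 1 (3.33%). None passed for RSC against VHN with edgeR or DESeq2. There edgeR called 0% of all genes, 721 genes and 1 member (Adgrl1, -0.38, adjusted p = 0.922) had an unadjusted p under 0.05, and DESeq2 called 59 genes. These contrasts share libraries, so their counts are not independent.

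The deposited FPKM values, which are per length, were used to compare family members with each other. Tenm3 made up 36.2% ± 5.93 of the summed teneurin FPKM in NA and 38.3% ± 10.8 in PFC, and 66.4% ± 3.44 in RSC and 58.2% ± 9.94 in VHN (SD, n = 3). Tenm1 held 15.2% ± 4.26 in PFC, 4.44% ± 0.49 in NA, 1.49% ± 0.41 in RSC and 1.25% ± 0.40 in VHN, the smallest share in every population. Tenm4 took 25.7% ± 4.72 in NA and 10.3% ± 2.92 in RSC. The order of the teneurins in RSC was therefore Tenm3, Tenm2, Tenm4 and Tenm1, while Tenm3 and Tenm2 lay within their spread of each other in NA.

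Flrt2 led its family in NA (49.5% ± 3.86) and PFC (50.5% ± 5.28). For RSC, Flrt1 (35.5% ± 3.99) and Flrt2 (35.8% ± 6.71) lay within their spread of each other. For VHN, Flrt1 held 38.9% ± 5.87 beside 31.0% ± 8.58 for Flrt2 (SD, n = 3). The summed FPKM of the family averaged 76.8 ± 9.80 for NA and 101 ± 24.9 for PFC, beside 44.0 ± 6.62 for RSC and 47.7 ± 1.45 for VHN. The teneurin sum ran the other way, with 150.0 ± 6.31 for NA and 172 ± 19.6 for PFC, beside 248 ± 14.8 for RSC and 264 ± 73.4 for VHN.

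Adgrl1 held 60.2% ± 4.71 of the latrophilin FPKM in NA, 50.5% ± 8.71 in PFC and 34.7% ± 5.40 in RSC. In VHN it held 53.3% ± 18.9, with 75.1% in VHN replicate 3 alone. In that library the FPKM of Adgrl1 stood apart while its CPM, 536, did not. The ratio of CPM to FPKM, which a fixed length would hold constant between libraries after scaling, varied 4.01-fold for Adgrl1, against a median of 1.32-fold over 7804 genes. It also exceeded that median for Tenm1 (2.72-fold), Tenm4 (2.32), Tenm3 (2.16), Adgrl3 (1.89), Tenm2 (1.84) and Flrt2 (1.70), and stayed under it for Adgrl2 (1.2), Flrt3 (1.15) and Flrt1 (1.07). For Tenm1 and Tenm3 the ratios were low in PFC, at 0.499 to 0.85 and 0.573 to 0.786. The FPKM shares and sums of all 3 families and the limma alternative carry that variation, and the CPM values do not use a length.

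**Figure D3:**
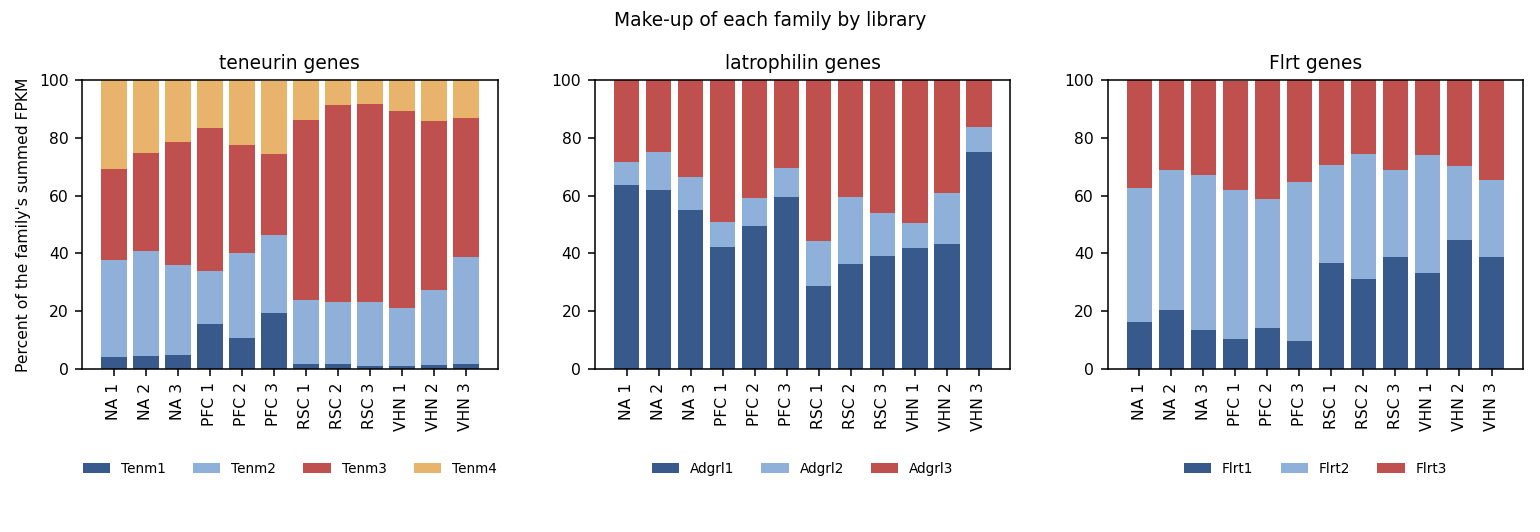
Stacked bars give each member's percent of its family's summed FPKM in the 12 bulk libraries, for teneurins, latrophilins and Flrt genes. The Tenm3 part is larger in RSC and VHN (means 66.4% and 58.2%) than in NA and PFC (36.2% and 38.3%), and VHN replicate 3 stands apart among the latrophilins with 75.1% Adgrl1.

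Of a list of binding partners, outside or inside the cell, 16 are reported here for comparison, and 14 could be tested (Unc5b and Adgrl4 could not, for low counts). In the paired contrast 4 of 14 passed, and 2 of 14 in the 4-group test (Unc5c and Robo1), to be read against the same 14.2% and 8.93% of all genes. Unc5c, a netrin and Flrt receptor, was at 87.3, 114.5 and 84.1 CPM in NA, 26.9, 65.8 and 30.8 in PFC, 407, 385 and 441 in RSC, and 419, 219 and 208 in VHN. It was higher in all RSC and VHN libraries, with a log2 difference of -2.44 ± 0.24 (SE, edgeR, adjusted p = 6.81e-06). Robo1, the Slit receptor that Flrt3 is known to bind, was at 93.5, 192 and 111 CPM in NA, 99.8, 106 and 127 in PFC, 19.4, 6.84 and 27.35 in RSC, and 2.47, 39.2 and 35.8 in VHN. It was higher in all NA and PFC libraries, by 2.49 ± 0.49 (SE, edgeR, adjusted p = 0.00229).

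Fgfr1, a growth factor receptor whose signalling Flrt proteins can modulate, was lower in NA and PFC (19.7 to 63.0 CPM) than in RSC and VHN (52.75 to 116 CPM), by -1.32 ± 0.32 (SE, edgeR, adjusted p = 0.0105). The scaffold gene Shank2, whose family binds latrophilin tails, was higher in NA and PFC by 0.55 ± 0.16 (SE, edgeR, adjusted p = 0.0273). The calls of Unc5c, Robo1 and Fgfr1 held without the 3 libraries named above, and that of Shank2 did not (adjusted p = 0.277). Shank2 also missed the threshold without NA replicate 2, PFC replicate 2, RSC replicate 2, RSC replicate 3, VHN replicate 1 or VHN replicate 2 (adjusted p 0.0518 to 0.0787). The other 10 tested partners, among them Unc5a, Nrxn2, Nrxn3, Dlg4 and Shank1, did not pass.

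For each member called in the 4-group test, the 3 genes outside the families with the most similar pattern were taken by Pearson r of log2(CPM + 1) over the 12 libraries, among 13285 genes with a symbol. For Tenm3 these were the cadherin Cdh7 (r = 0.965), the ATP synthase subunit Atp5o (0.960) and the growth factor binding protein Igfbp5 (0.954). Those for Adgrl1 were Dpysl2, an axonal microtubule regulator (0.959), the synaptic adhesion gene Cadm1 (0.958) and Casd1 (0.954). Flrt3 was closest to Ctxn1 (0.963), the transcription factor gene Insm1 (0.963) and Caskin1 (0.960), and Flrt2 to the RNA-binding protein gene Celf2 (0.914), Susd6 (0.914) and the phosphatase subunit gene Ppp2r2a (0.911). Tenm1 followed Strip2 (0.935), the neurite growth gene Nrn1 (0.923) and the dynein light chain gene Dynll1 (0.922). Tenm2 followed Nat9 (0.958), the homeobox gene Mkx (0.947) and the potassium channel subunit gene Kcnab3 (0.940). All of these points share libraries and the same 4 populations, so an r describes the pattern only. Between members, Tenm3 and Flrt3 had the most negative r (-0.91), and Tenm1 and Flrt3 shared the highest with r = 0.88.

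Single cells were described over 348 wells with at least 1000 detected genes, of 384 wells on 4 plates. The wells form 1 pooled sample, since the labels do not tie wells to mice or to projection targets, and no test was made. A median of 112401 counts and 5222 genes was found per well, with counts from 2795 to 322542. No well had the same counts as another. Slc17a7 was counted in 93.7% of the wells and Gad1, which defines inhibitory neurons, in 3 wells (0.862%).

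Tenm2 was found in the most wells and Tenm1 in the fewest. A count was present in 94.5% of wells for Tenm2 (95% exact interval 91.6% to 96.7%), 82.8% for Tenm4 (78.4% to 86.6%), 57.5% for Tenm3 (52.1% to 62.7%) and 20.7% for Tenm1 (16.6% to 25.3%). Among the latrophilins the share was 92.0% for Adgrl1 (88.6% to 94.6%), 78.4% for Adgrl3 (73.8% to 82.7%) and 67.8% for Adgrl2 (62.6% to 72.7%). Among the Flrt genes it was 71.8% for Flrt1 (66.8% to 76.5%), 55.7% for Flrt2 (50.4% to 61.0%) and 37.4% for Flrt3 (32.3% to 42.7%). These intervals cover counting error only. At 30000 counts per well in 334 wells, Tenm2 kept 94.6% and Tenm3 47.9%, and members with a count in over 50% of wells numbered 6, against 8 at full depth.

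Wells usually held several members. At full depth 3 of the 4 teneurins were counted in 50.3% of wells and all 4 in 9.20%, and all 3 latrophilins in 53.2%. All 3 Flrt genes were counted in 15.2% of wells and none of them in 9.48%. At 30000 counts, wells held a median of 6 of the 10 members.

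Levels of Tenm3 and Adgrl2 were compared within wells because of their known complementary pattern. At 30000 counts, 76 of 334 wells held both, 84 only Tenm3, 104 only Adgrl2 and 70 neither. Adgrl2 was thus counted in 47.5% of wells with Tenm3 and 59.8% of wells without it. At full depth the order was the opposite, 69.5% against 65.5%, so no exclusion was read from these counts.

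Wells were next divided by Nts, the neurotensin gene, which in the bulk data ranged from 199 to 406 CPM over RSC and VHN libraries and from 10.9 to 31.6 CPM over those of NA and PFC. At a limit of 100 CPM, 204 wells were Nts-high, 61 of the rest had at least 100 CPM of Calb1, 24 had that much Rprm only, and 59 had none of the 3. Such classes are ranges and not cell types: 65 wells had 50 to 200 CPM of Nts, and 103 had no Nts count. Median counts were 116846 in Nts-high wells, 115774 in the Calb1 class, 110750 in the Rprm class and 75280 in wells low in all 3.

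Between Nts-high and other wells, 4 of 10 members differed at least 1.5-fold in summed CPM, as did 15.1% of 8242 genes. Adgrl2 was higher in Nts-high wells, 85.4 against 48.7 CPM, on 4 of 4 plates (ratios 1.25 to 2.21). Tenm1 was lower, 12 against 26.1 CPM, on all 4 plates (0.33 to 0.77). Flrt3 was lower, 30.1 against 54.1 CPM, again on all 4 (0.31 to 0.76). Tenm4 was lower in sum, 112 against 169 CPM, with no difference on plate Q6 (ratio 1.01). The number was 7 when plate Q6 was left out and 7 with a limit of 200 CPM. The share of all genes was not computed for either of these settings. Tenm2 stood at 494 against 337 CPM, higher on every plate, and Flrt2 at 42.6 against 62.1 CPM, lower on every plate. Adgrl1, Adgrl3 and Flrt1 had ratios of 0.93, 1.09 and 1.18, each with plates in both directions.

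Tenm3, which had the largest bulk difference among the members, was 69.2 CPM in Nts-high and 52.3 CPM in other wells. It was higher in Nts-high wells on 3 plates (1.62 to 1.77-fold) and lower on plate Q6 (0.70). For comparison, its bulk ratio of RSC and VHN over NA and PFC was 3.49. Adgrl1 was also nearly level across wells, where the bulk ratio had been 1.86. Tenm1 and Flrt3 were 2.18-fold and 1.79-fold higher in wells low in Nts, beside bulk ratios of 3.19 and 2.36 for NA and PFC. Adgrl2 was higher in Nts-high wells, whereas its bulk mean was 276 ± 57.4 CPM over NA and PFC libraries, beside 214 ± 55.0 CPM over those of RSC and VHN (SD, n = 6). Bulk libraries were grouped by projection target and wells by Nts, so these values are set side by side without a test.

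**Figure D4:**
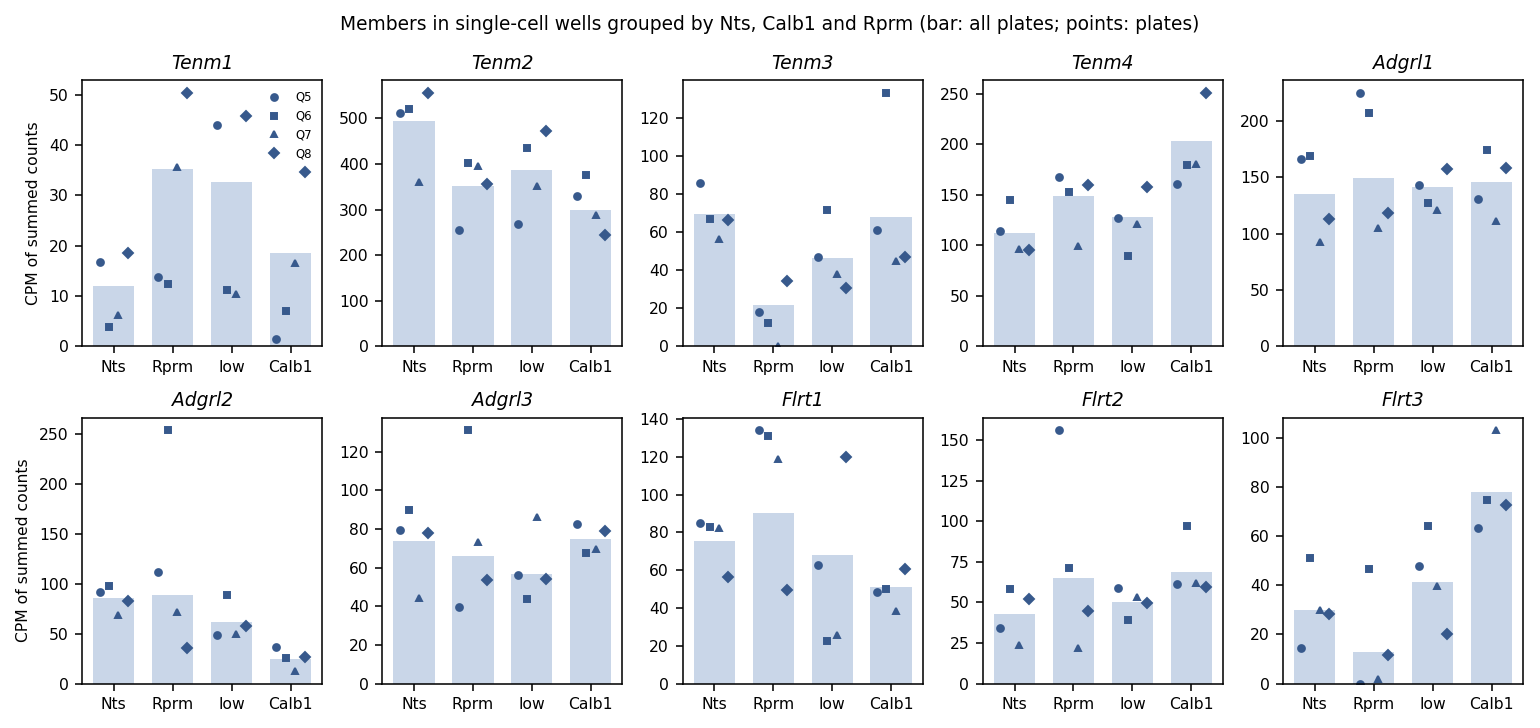
Each panel gives one member's CPM from summed counts in wells high in Nts (204 wells), high in Rprm (24), low in all 3 markers (59) and high in Calb1 (61), as bars for all plates and points for plates Q5 to Q8. Flrt3 reaches 78.1 CPM in the Calb1 class and 12.8 CPM in the Rprm class, and points of the small Rprm class scatter widely.

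The wells low in Nts were not alike. Flrt3 was at 78.1 CPM in the Calb1 class (95% Poisson interval 71.8 to 84.9) and 12.8 CPM in the Rprm class (8.94 to 17.8). Poisson intervals cover counting error only and not the spread between wells or plates, over which Flrt3 ranged from 0 to 46.8 CPM in the Rprm class. Tenm4 was also highest in the Calb1 class, at 203 CPM, beside 112 in Nts-high wells. Adgrl2 was lowest there, at 25.0 CPM (21.4 to 28.9), against 61.5 to 89.1 CPM in the other 3 classes. Tenm3 was at 68.1 CPM in the Calb1 class, close to the 69.2 CPM of Nts-high wells, and at 21.6 CPM in the Rprm class (16.5 to 27.9). Tenm1 was at 35.2 CPM in the Rprm class and 32.6 CPM in wells low in all 3, against 12 CPM in Nts-high wells, though on plate Q5 the Rprm class was the lower, at 13.8 against 16.7 CPM. The Rprm class held 4 to 10 wells per plate, and on single plates Tenm3 and Flrt3 were at 0 there.

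At 30000 counts per well, the shares of wells with a count kept the order of the CPM for Adgrl2. For Flrt3, Nts-high wells and wells low in all 3 were nearly level, where their CPM had been 30.1 and 41.4. For Tenm3, the share was higher in the Calb1 class than in Nts-high wells, where the CPM had been close. Flrt3 was counted in 63.3% of 60 Calb1 wells, 26.0% of 204 Nts-high wells, 25.5% of 47 wells low in all 3 and 13.0% of 23 Rprm wells (63.9%, 35.8%, 23.7% and 16.7% at full depth). Adgrl2 was counted in 33.3%, 59.8%, 48.9% and 65.2% of the same wells (50.8%, 77.0%, 50.8% and 75.0% at full depth). Tenm3 was counted in 66.7%, 49%, 34% and 17.4% of them (70.5%, 63.2%, 35.6% and 29.2% at full depth).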

How the data were processed

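Bulk values came from a Cuffdiff read-group table. Per the file headers, its raw fragments are expected counts per gene and library, which the authors left unscaled, and its FPKM values were scaled per library by the authors. Per the submitters' processing notes the build was mm9; aligner, versions and strand use are not given in the sources used here. Single cells were deposited as unscaled counts, 1 column per well. GENCODE symbols were joined by Ensembl identifier (87.5% of 37607 gene rows had one). Replicates are numbered from 0 in the table and from 1 in the labels, and library names assume the same order.

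Expected counts were rounded, filtered with filterByExpr (smallest count 10, 13916 genes left) and scaled by TMM. One quasi-likelihood fit in edgeR 4.0.16 covered the 12 libraries (8 residual degrees of freedom), with Benjamini-Hochberg adjustment over all genes and a threshold of 0.05. DESeq2 1.42.0, and limma 3.58.1 on log2(FPKM + 1), were alternatives. The script was tested on simulated data. FPKM was used to compare genes, for family sums by population and in the limma alternative. The labels call replicates biological without naming animals, so p-values measure the spread between these libraries.

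Wells with at least 1000 detected genes (348 of 384) were summed by class. Doublets were not called. Wells were to be divided by Fn1, which was not analysed in single cells, and were divided by Nts at 100 CPM instead. Intervals are exact (Clopper-Pearson, Poisson) at 95%.

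One gene of the partner list is not reported here. Members and lists were chosen with earlier results of these data known. Named genes were all members, partner genes called in NA and PFC against RSC and VHN, and the 3 genes most like each member called in the 4-group test.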

Additional observations from a re-analysis of the deposited data

Results flagged for a closer look

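The Tenm3 level of 117 CPM in PFC replicate 3 stood far below the other 5 NA and PFC libraries, which held 233 to 285 CPM. It was the only one of 20 sets of 6 libraries (10 members, 2 sides) with such a gap, and chance gives a gap of this kind in about 1 of 20 sets. Without PFC replicate 3 the paired contrast of Tenm3 was -1.65 on the log2 scale (edgeR, adjusted p = 1.91e-05).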

How the results depend on the processing

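No value changed direction past the threshold under any alternative run. Without the 3 libraries that carried interneuron transcripts, fewer members and fewer partner genes were called in the 4-group test. Without those libraries the pairwise counts of members were 0 for NA against RSC, 1 for PFC against RSC and 2 for PFC against VHN. That fit has fewer samples, with RSC as 1 library assumed to vary like the other groups. Partner genes called in the 4-group test rose to 4 with no filter on low counts (12.8% of all genes) and 4 with DESeq2 (17.3%). They ranged from 2 to 4 when 1 library was left out. DESeq2 called 1 member for NA against PFC (3.33% of all genes) and 6 for NA against VHN (7.74%). For NA against VHN, no filter gave 4 (4.29% of all genes) and limma on FPKM 1 (3.75%). Leaving out 1 library gave 1 to 2 members for NA against VHN (0.927% to 2.96% of all genes). It gave 4 to 7 for PFC against RSC (5.04% to 12.4%) and 4 to 7 for PFC against VHN (2.24% to 7.46%). For NA against RSC it gave 2 to 3 (2.62% to 5.97%). In the 4-group test it gave 5 to 6 (6.04% to 9.95%), and in the paired contrast 6 to 9 (10.1% to 14.7%). Members at least 1.5-fold apart between Nts classes numbered 7 without plate Q6 and 7 at 200 CPM, against 4. The share of all genes was computed only for the main split, at 15.1%. The cause was not tested where none is named. Leaving out RSC replicates 2 and 3 and VHN replicate 3, or NA replicate 2 and PFC replicate 3, and the limits of 50 and 200 CPM or any count for Nts, were chosen after seeing the data.

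Replicate numbers were not found to pair the libraries: none of 18 same-numbered pairs had a correlation of deviations over 0.1 (-0.026 to 0.038), and 2 of 12 libraries were most like one of their own number. With the replicate number as a block, 7 members passed the paired contrast (13% of all genes) and 6 the 4-group test (7.89%), as without it. Partner genes called with that block numbered 5 and 2. The median well had no count for Tenm1 or for Flrt3. Whether depth limited the levels of these genes in single wells was not tested.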
